A study of Mus musculus with 4 samples.

Results

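The genes described here are 9 genes for loading peptides onto class I major histocompatibility complex (MHC) molecules and for switching on the class I genes. They are Tap1, Tap2, Tapbp, Tapbpl, Erap1, Calr, Canx, Pdia3 and Nlrc5. They were chosen by name, for their known roles but with earlier results of these data known, and make up 9 of the 27179 genes in the count table. All 9 were detected in every library and all 9 passed the filter on low counts, which left 13580 genes to test. RNA was measured in MC38 cells, a mouse colon carcinoma line with the wild-type genotype in all 4 libraries. One library was an untreated control in normoxia, 1 an untreated control in hypoxia, 1 received IFN-gamma in normoxia and 1 received IFN-gamma in hypoxia. IFN-gamma is a cytokine made by T cells and natural killer cells. The usual treatment in this work was 5 ng/mL of IFN-gamma for 1 day, with oxygen at 20% in normoxia and 1.5% in hypoxia, and the labels do not restate dose or time for these libraries. Each condition is 1 library of 1 cell line, so no value below has a replicate of its own condition.

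Class I molecules carry short peptides from inside the cell to its surface, where CD8+ T cells read them. The transporter formed by Tap1 and Tap2 moves peptides from the cytosol into the endoplasmic reticulum. There tapasin, calreticulin and ERp57 hold an empty class I molecule beside the transporter until a peptide fits, and Erap1 trims peptides that are too long. Nlrc5 works earlier, in the nucleus, as a coactivator of class I genes that binds no DNA itself and acts through a protein complex on their promoters.

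The libraries held between 34302971 and 34537939 counts, and the scaling factors between libraries were 0.993 to 1.01, so depth hardly differed. At most 5.21% of the 31-base words of any of the 9 genes, the value of Tapbpl, occurred in another gene. The label colon cancer cells did not come with epithelial markers. Of 7 epithelial marker genes, 4 had at most 3 counts in every library, and Cdh1 and Cdx2 had 0 in all. The 7 summed to between 63 and 101 counts a library, against 76181 to 82835 for 5 mesenchymal markers, which were almost entirely Vim. The 8 leukocyte markers summed to between 183 and 249 counts, mostly Cd68, and Itgam was at 0 in all. Neither the leukocyte nor the mesenchymal sum was higher in an IFN-gamma library than in both controls.

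IFN-gamma raised 6 of the 9 genes, namely Nlrc5, Tap2, Tap1, Tapbpl, Tapbp and Erap1, and lowered none. The 3 that did not pass the test were Calr, Canx and Pdia3, the general chaperones of the endoplasmic reticulum. The test was edgeR's quasi-likelihood fit of an additive model, with a term for IFN-gamma and a term for oxygen over the 4 libraries, at a Benjamini-Hochberg adjusted p under 0.05. Over all 13580 genes it called 4.76% raised and 1.10% lowered by IFN-gamma. The median change of the 9 genes was 1.58 on the log2 scale, against -0.01 for all genes tested. At an unadjusted p under 0.05 edgeR gave 8 raised, with Calr and Pdia3 added, and 0 lowered, and DESeq2 called 6 raised and 0 lowered. With 1 residual degree of freedom, the spread in this test is the departure of the 4 libraries from additivity, in which culture differences and any dependence of one stimulus on the other cannot be told apart.

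Tap1 and Tap2, the paired subunits of the peptide transporter, rose together. Tap1 (gene 21354) lies at chr17:34187556-34197225 and Tap2 (gene 21355) at chr17:34204479-34216321, both on the plus strand of GRCm38.p6. Tap1 had 4672 counts in control normoxia, 5179 in control hypoxia, 18913 with IFN-gamma in normoxia and 21213 with IFN-gamma in hypoxia. Tap2 had 1478, 1600, 6005 and 7212 counts in the same order. Both IFN-gamma libraries therefore lay far above both controls for each subunit, and in each treatment the hypoxic library held slightly more than the normoxic one. The additive change of Tap1 was 2.04 on the log2 scale (SE 0.0541, adjusted p = 7.37e-293 by edgeR's quasi-likelihood test). That of Tap2 was 2.11 (SE 0.0643, adjusted p = 1.19e-224 by edgeR). Over 5 alternative fits (edgeR or DESeq2) the adjusted p was at most 0.000114 for Tap1 and 0.000198 for Tap2. The changes were nearly the same in those fits, so the size of these p-values depends on the fit. Taken one pair at a time, IFN-gamma multiplied Tap1 by 4.09 in normoxia and by 4.13 in hypoxia. For Tap2 the folds were 4.10 and 4.55. In the GENCODE M21 annotation, exons of Tap1 share 212 bases with Psmb9 and exons of Tap2 share 533 with Gm15821 and 165 with Gm20496, all on the opposite strand. In RefSeq the starts of Tap1 and Psmb9 lie 226 bases apart, so their overlap depends on the annotation. The subunits kept nearly the same proportion: per kilobase of exon, the level of Tap1 was 2.18, 2.24, 2.17 and 2.03 times that of Tap2 across the 4 libraries.

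Tapbp encodes tapasin, which bridges the transporter and the class I molecule (gene 21356, chr17:33919478-33929290, plus strand). It had 10754 counts in control normoxia, 10763 in control hypoxia, 30309 with IFN-gamma in normoxia and 33666 with IFN-gamma in hypoxia. The controls were almost identical, and both IFN-gamma libraries were higher by a wide margin. Its additive change was 1.58 on the log2 scale (SE 0.0502, adjusted p = 3.87e-208 by edgeR, at most 0.00015 over 5 alternative fits). Its exons share 904 bases with Gm19412, on the opposite strand with 46 to 61 counts a library, and 149 with Zbtb22, on the same strand with 509 to 592. Tapbpl (gene 213233, chr6:125223927-125231860, minus strand) encodes the tapasin-related protein TAPBPR, which edits peptides outside the transporter complex. It had 817, 795, 3035 and 3104 counts in the same order, so that oxygen moved it by little in either treatment. The additive change of Tapbpl was larger than that of its relative, at 1.94 (SE 0.0751, adjusted p = 2.16e-141 by edgeR, at most 6.56e-05 over 5 alternative fits). Per kilobase of exon, however, tapasin stayed the more abundant, at 8.53 and 8.78 times the level of Tapbpl in the controls and 6.47 and 7.03 times with IFN-gamma.

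Erap1, the aminopeptidase that trims peptides inside the endoplasmic reticulum, had the smallest change of the 6 called genes. The gene (80898) lies at chr13:74639573-74693205 on the plus strand. It had 2562 counts in control normoxia, 2667 in control hypoxia, 6541 with IFN-gamma in normoxia and 6594 with IFN-gamma in hypoxia. The IFN-gamma libraries lay above the controls, and within each treatment the normoxic and hypoxic libraries differed by little. The additive change was 1.34 on the log2 scale (SE 0.0609, adjusted p = 2.21e-103 by edgeR, at most 0.00032 over 5 alternative fits). Erap1 shares 834 exon bases with Cast, a gene on the opposite strand with 5187 to 6442 counts a library. Cast was lower in each IFN-gamma library than in the control at the same oxygen. Reads from overlapping opposite strands cannot be told apart unless counting uses strand. The libraries were strand-specific, and whether counting used strand is not given in the sources used here.

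Nlrc5 had the largest IFN-gamma change of the 9, from the lowest level. The gene (434341) lies at chr8:94434335-94527272 on the plus strand. It had 1112 counts in control normoxia, 993 in control hypoxia, 6229 with IFN-gamma in normoxia and 6987 with IFN-gamma in hypoxia. In the controls the hypoxic library was the lower one, and with IFN-gamma it was the higher one. The additive change was 2.66 on the log2 scale (SE 0.0672). Its adjusted p from edgeR was too small to be written as a number, and over 5 alternative fits it was at most 4.63e-05. By size, Nlrc5 ranked 70 of the 13580 genes tested, Tap2 ranked 106, Tap1 116, Tapbpl 127, Tapbp 164 and Erap1 214. A non-coding gene on the other strand, 9330175E14Rik, shares 78 exon bases with Nlrc5 and had 59, 46, 254 and 307 counts across the same 4 libraries. Its order over the libraries was that of Nlrc5, at far lower counts, and its part in the Nlrc5 value was not tested.

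Calr, Canx and Pdia3 did not pass the test with IFN-gamma. They lie at chr8:84842088-84846931 on the minus strand (Calr, gene 12317), chr11:50293957-50325673 on the minus strand (Canx, gene 12330) and chr2:121413902-121438687 on the plus strand (Pdia3, gene 14827). Calr encodes calreticulin, a soluble chaperone that binds sugar chains of folding proteins, and had 44529 counts in control normoxia, 42167 in control hypoxia, 47136 with IFN-gamma in normoxia and 47104 with IFN-gamma in hypoxia. Pdia3 encodes ERp57, the disulfide exchange partner of tapasin, with 33392, 31968, 35974 and 35092 counts. For both genes the IFN-gamma libraries lay above the controls, by a small margin. The additive change was 0.13 for Calr (SE 0.0456, adjusted p = 0.0536 by edgeR) and 0.13 for Pdia3 (SE 0.0468, adjusted p = 0.0645 by edgeR). Each passed the threshold in 1 of 5 alternative fits, so neither is called here. Canx encodes calnexin, the membrane-bound relative of calreticulin, and had 50489, 51881, 51959 and 50755 counts. Its control and IFN-gamma libraries overlapped, with an additive change of 0.02 (SE 0.0451, adjusted p = 0.948 by edgeR). After scaling, both IFN-gamma libraries exceeded both controls for 8 of the 9 genes, all but Canx, and for 15.3% of all genes tested.

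**Figure D1:**
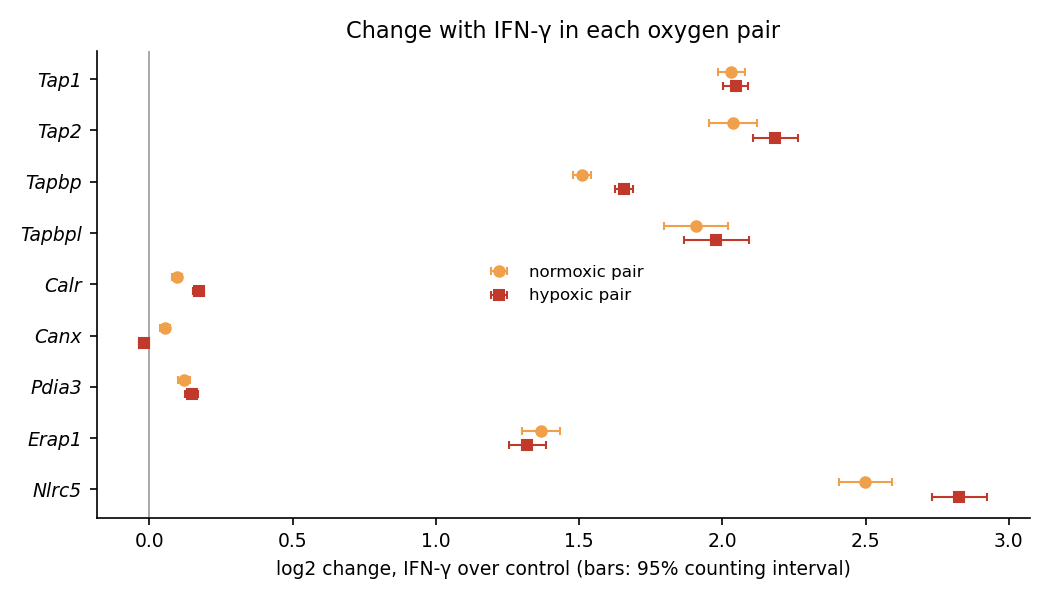
Change with IFN-gamma (log2) for each of the 9 genes in the normoxic pair and in the hypoxic pair, with bars for the 95% counting interval, which covers counting error and not culture differences. Nlrc5 reaches 2.50 in normoxia and 2.83 in hypoxia, Tap1, Tap2, Tapbp, Tapbpl and Erap1 lie between 1.32 and 2.18, and Calr, Canx and Pdia3 lie between -0.02 and 0.17.

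From the reference promoters of these genes 4 stretches are shown, namely the region between Tap1 and its neighbour and those that hold the rarest of the matches searched for. They come from the RefSeq promoter table for GRCm38.p6, the same assembly as the mm10 build of the counts, and run 5′ to 3′ on the strand of the gene. Positions count from +1 at the start of transcription in that table, and the base before it is -1. Capitals mark letters that match a searched motif. The first is the whole of the interval between the divergent starts of Psmb9, an immunoproteasome subunit, and Tap1, which lie 226 bases apart (chr17:34187330-34187556, plus strand). The others surround the only interferon-response match of a member, in Erap1 (chr13:74639839-74639868, plus strand), and the endoplasmic reticulum stress element matches of Calr (chr8:84847040-84847128, minus strand) and Canx (chr11:50325765-50325853, minus strand).
Tap1: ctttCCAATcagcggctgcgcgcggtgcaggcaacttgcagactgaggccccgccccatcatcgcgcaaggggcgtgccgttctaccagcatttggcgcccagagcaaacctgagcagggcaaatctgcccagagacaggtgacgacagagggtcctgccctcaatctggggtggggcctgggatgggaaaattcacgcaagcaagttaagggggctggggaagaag
Erap1: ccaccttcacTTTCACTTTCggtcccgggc
Calr: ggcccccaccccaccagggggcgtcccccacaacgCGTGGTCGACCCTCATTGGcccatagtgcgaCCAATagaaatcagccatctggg
Canx: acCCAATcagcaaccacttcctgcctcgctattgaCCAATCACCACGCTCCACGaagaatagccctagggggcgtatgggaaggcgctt

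In these letters, Tap1 has 1 CCAAT match, the letters that NF-Y reads, near the Psmb9 end. Erap1 has the interferon-response letters (GAAA, any 2 bases, GAAA) on the strand opposite to the gene, from -4 to 6. Calr and Canx each have the endoplasmic reticulum stress element (CCAAT, any 9 bases, CCACG), at -162 to -144 in Calr on the opposite strand and at -145 to -127 in Canx on its own strand. The element contains a CCAAT match, so the overlapping matches are not independent. The start used for Erap1 lies inside a longer first exon of other transcripts of the gene.

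Searched on both strands over 250 bases before to 50 bases after the start, 6 motifs were compared with all 32851 promoters of the table. Tap1, Tapbp, Erap1, Calr, Canx and Pdia3 have a window in it, and Tap2, Tapbpl and Nlrc5 were not searched. CCAAT was found in 5 of the 6 windows, all but Erap1, and in 37.4% of all promoters. The endoplasmic reticulum stress element was found in 2 of 6, against 39 promoters in all, or 0.119%. Of the glycoprotein folding genes described below, Hspa5, Hsp90b1 and Pdia6 also hold it and the others do not. The interferon-response letters were found in 1 of 6 and in 3.44% of all promoters. The gamma-activated site (TTC, any 3 bases, GAA) was found in 0 of 6 and in 8.30% of all. The core of the hypoxia-response element, ACGTG, was found in Erap1 and Calr and in 19.6% of all, and the cyclic-AMP element TGACGTCA in 0 of 6 and 1.79% of all. A match is a description of letters in this window, and no binding was measured.

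**Figure D2:**
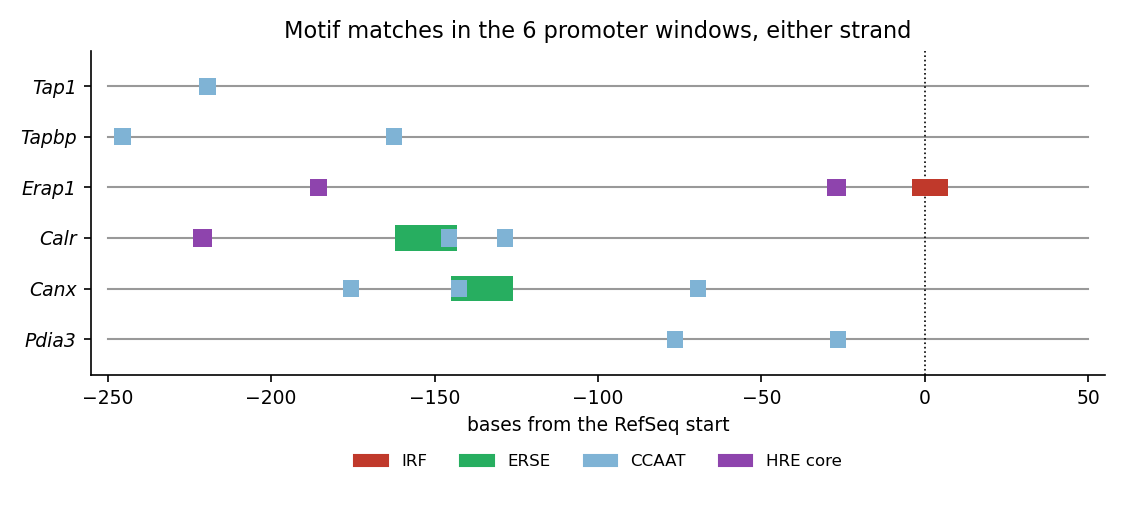
Positions of the motif matches in the 6 promoter windows, as bases from the transcription start, with a row for each gene and a coloured box for each match (IRF, the interferon-response letters; ERSE, the stress element; HRE core, that of the hypoxia-response element). CCAAT matches appear in Tap1, Tapbp, Calr, Canx and Pdia3, the stress element appears in Calr and Canx, and the interferon-response match sits at the start of Erap1.

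Levels were compared between genes as counts per kilobase of exon per 1000000 counts. In control normoxia, Calr stood at 451, Canx at 314, Pdia3 at 310.1 and Tapbp at 86.4. Below these came Tap1 at 24.9, Tap2 at 11.4, Erap1 at 10.3, Tapbpl at 10.1 and Nlrc5 at 3.82. The general chaperones Calr, Canx and Pdia3 were thus the most abundant, and the regulator Nlrc5 the least. The order in control hypoxia was the same. Neighbours that lay close together in control normoxia were Canx and Pdia3, with a ratio of 1.01, and Erap1 and Tapbpl, also 1.01. In control hypoxia these ratios were 1.09 for Canx over Pdia3 and 1.08 for Erap1 over Tapbpl. The 4.71% coefficient of variation from the fit describes spread between libraries, not between genes. The error of a ratio between genes was not estimated, so the order of such close neighbours is uncertain.

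With IFN-gamma in hypoxia the same scale read 475 for Calr, 325 for Pdia3, 314 for Canx and 270 for Tapbp. It read 113 for Tap1, 55.4 for Tap2, 38.3 for Tapbpl, 26.3 for Erap1 and 23.9 for Nlrc5. In both IFN-gamma libraries Pdia3 stood above Canx, by 1.03 to 1.04 times, a ratio whose error was likewise not estimated, and Tapbpl stood above Erap1. Nlrc5 stayed last, although its level rose from 3.82 to 21.2 in normoxia.

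With IFN-gamma the chaperones and the transporter lay closer in level to tapasin, whereas the gaps between Erap1 and the other raised loading genes widened. The level of Calr per kilobase was 5.22 and 4.93 times that of tapasin in the controls, and 1.96 and 1.76 times with IFN-gamma. Pdia3, the partner bound to tapasin in the complex, went from 3.59 and 3.43 times the level of tapasin to 1.37 and 1.21 times. Canx went from 3.63 and 3.73 times to 1.32 and 1.17 times. Between tapasin and the transporter the gap also narrowed. Tapbp stood at 4.77 and 4.33 times the mean level of Tap1 and Tap2 in the controls, and at 3.31 and 3.21 times with IFN-gamma. Relative to Erap1, tapasin went from 8.42 and 8.10 times in the controls to 9.30 and 10.2 times. Tap1 went from 2.42 and 2.58 times the level of Erap1 to 3.84 and 4.28 times, and Tap2 from 1.11 and 1.16 times to 1.77 and 2.11 times. Tapbpl went from 0.987 and 0.923 times to 1.44 and 1.46 times.

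**Figure D3:**
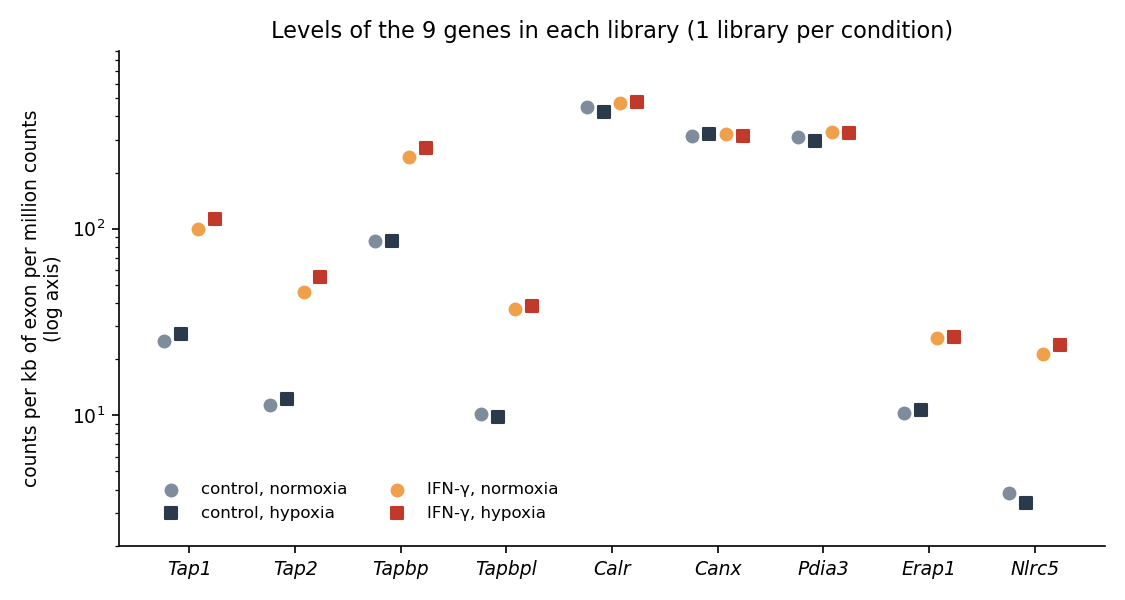
Level of each of the 9 genes in the 4 libraries, in counts per kilobase of exon per 1000000 counts on a log axis, with 1 point for each library. In control normoxia the genes span from 3.82 for Nlrc5 to 451 for Calr, and with IFN-gamma in hypoxia from 23.9 to 475.

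Hypoxia moved these genes far less than IFN-gamma did. In the additive edgeR fit it raised 2 of the 9 genes, Tap1 and Tap2, and lowered 0, against 8.21% raised and 6.83% lowered among all genes tested. The change of Tap2 was 0.20 on the log2 scale (SE 0.0627, adjusted p = 0.0139 by edgeR's quasi-likelihood test). The change of Tap1 was 0.16 (SE 0.0524, adjusted p = 0.0208 by edgeR). Both calls were kept in 2 of 5 alternative fits, with an adjusted p of up to 0.949 for Tap1 and 0.927 for Tap2, so they depend on the model. At an unadjusted p under 0.05 edgeR gave 2 raised and 0 lowered, and DESeq2 called 0 in either direction. The other 7 changes ran from -0.05 for Pdia3 to 0.08 for Tapbp, none past the threshold, and the median of the 9 was 0.03, against 0.00 for all genes tested.

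Single pairs show where the small hypoxia differences lay. Without IFN-gamma, the log2 change with hypoxia was 0.15 for Tap1 (95% counting interval 0.09 to 0.21), 0.12 for Tap2 (0.01 to 0.22) and 0.04 for Canx (0.02 to 0.06). Those 3 intervals lay above 0, as did 26.3% of the 10443 genes that reached 100 counts in each of the 4 libraries. Nlrc5, at -0.16 (-0.29 to -0.04), Calr, at -0.08 (-0.10 to -0.06), and Pdia3, at -0.06 (-0.08 to -0.04), lay below 0, as did 26.1% of those genes. The intervals of Tapbp, Tapbpl and Erap1 held 0. These intervals cover counting error only, and so many genes lie outside 0 that a position outside it is ordinary here.

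With IFN-gamma present, 4 intervals lay above 0, for Tap2 at 0.27 (0.22 to 0.32), Tap1 at 0.17 (0.14 to 0.20), Nlrc5 at 0.17 (0.12 to 0.22) and Tapbp at 0.15 (0.13 to 0.18). The share over all genes was 24.0%. Canx, at -0.03 (-0.05 to -0.01), and Pdia3, at -0.03 (-0.06 to -0.01), lay below 0, where 29.0% of all genes were. The intervals of Tapbpl, Erap1 and Calr held 0. Nlrc5 thus lay below 0 in one pair and above it in the other, while Tap1 and Tap2 lay above 0 in both.

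**Figure D4:**
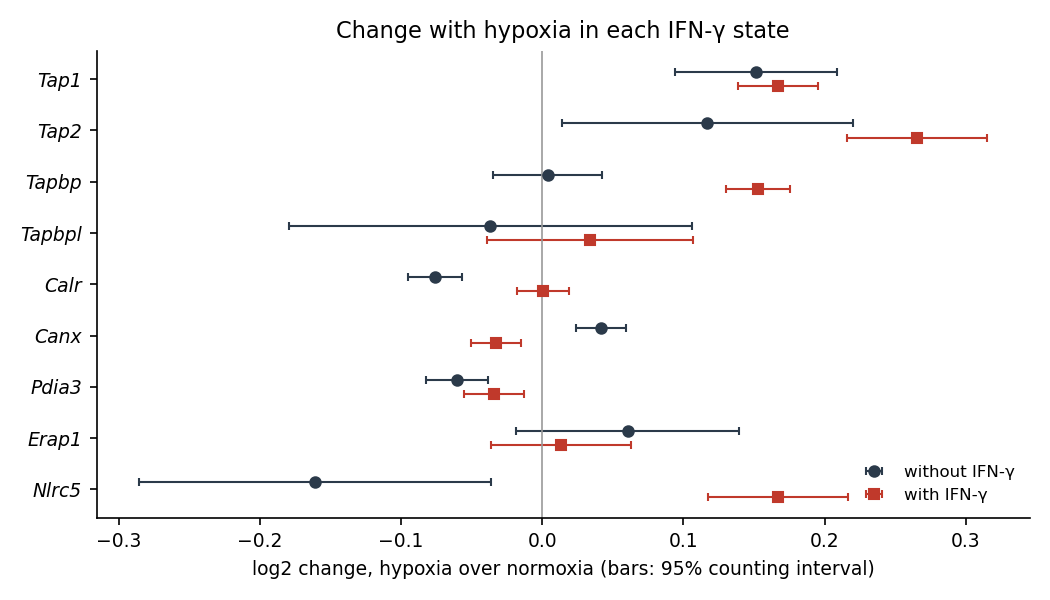
Change with hypoxia (log2) for each of the 9 genes in the pair without and the pair with IFN-gamma, with bars for the 95% counting interval. All values lie between -0.16 and 0.27, with Nlrc5 on opposite sides of 0 in the 2 pairs.

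Whether the IFN-gamma change depended on oxygen could be described but not tested, as each condition is 1 library. The difference of the 2 IFN-gamma changes, hypoxic minus normoxic, was largest for Nlrc5, at 0.33 on the log2 scale (95% counting interval 0.19 to 0.46). Its fold was 5.65 in normoxia and 7.10 in hypoxia. Tapbp followed at 0.15 (0.10 to 0.19), with folds of 2.85 and 3.16, and Tap2 at 0.15 (0.04 to 0.26). Calr differed by 0.08 (0.05 to 0.10) and Canx by -0.07 (-0.10 to -0.05). For Tap1, at 0.02 (-0.05 to 0.08), Tapbpl, at 0.07 (-0.09 to 0.23), Pdia3, at 0.03 (-0.00 to 0.06), and Erap1, at -0.05 (-0.14 to 0.04), the interval held 0.

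In all, 5 of the 9 intervals of the difference excluded 0, against 34.5% of 10443 genes. All 9 values lay inside the central 95% of those genes, which ran from -0.364 to 0.403 on the log2 scale. With a minimum of 50 counts it ran from -0.423 to 0.463. The range includes genes with lower counts, and so more counting error, than these 9. Lying inside it therefore does not show that a value is ordinary for genes of their depth. Against control normoxia, the library with both stimuli held 6.35 times as much Nlrc5, 4.93 times Tap2, 4.59 times Tap1, 3.84 times Tapbpl, 3.16 times Tapbp and 2.60 times Erap1. For Calr, Canx and Pdia3 it held 1.07, 1.02 and 1.06 times as much.

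The wider class I pathway was taken from 5 lists with 44 genes, of which 43 were tested. IFN-gamma raised 15 of the 43 and lowered 0 in the additive edgeR fit, against 4.76% raised and 1.10% lowered over all genes tested. DESeq2 gave the same counts, and edgeR gave 19 raised and 0 lowered at an unadjusted p under 0.05. All 3 class I molecule genes were raised, with a median log2 change of 0.83. B2m, the light chain of every class I molecule, went from 18875 and 18402 counts in the controls to 35010 and 34361 with IFN-gamma, a change of 0.91. H2-K1 changed by 0.83 and H2-D1 by 0.66, but 22.8% and 26.7% of their 31-base words occur in other genes, so their counts are uncertain. These heavy and light chains had smaller fitted changes than each of the 6 raised members. With hypoxia 0 of the 3 passed the edgeR threshold, against 1 at an unadjusted p under 0.05 and 0 by DESeq2. Over all genes tested edgeR called 8.21% raised and 6.83% lowered by hypoxia, so 0 of 3 is near those shares.

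The immunoproteasome cuts peptides that the transporter carries, and PA28 is its activator. All 5 of their genes were raised by IFN-gamma, against 4.76% of all genes tested, with a median of 1.87. Psmb9 had 609, 721, 4205 and 4718 counts in the order used above, a change of 2.76, next to 2.66 for Nlrc5. In the GENCODE M21 annotation Psmb9 shares 212 exon bases with Tap1, on the opposite strand. Psmb10 changed by 2.32 and Psmb8 by 1.87. With hypoxia, Psmb8 was raised by 0.31 (adjusted p = 5.46e-06 by edgeR), Psmb9 by 0.20 (adjusted p = 0.04) and Psme2 by 0.20, with 33.5% of its words shared with Psme2b, while Psmb10 fell by 0.17 (adjusted p = 0.0101). Over the 5 genes, hypoxia raised 3 and lowered 1, against 8.21% raised and 6.83% lowered over all genes tested. The neighbouring genes Psmb9, Tap1, Psmb8 and Tap2 lie in this order on chromosome 17. All 4 were called raised by both stimuli in the additive edgeR fit, and the 4 were not tested as a group. Of the hypoxia calls on these genes, Psmb8 was kept in 4 of 5 alternative fits, Psmb10 in 3, and Psmb9, Psme2, Tap1 and Tap2 in 2.

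The family to which Calr, Canx and Pdia3 belong was taken as 15 genes for glycoprotein folding in the endoplasmic reticulum. IFN-gamma raised 2 of the 15, against 4.76% of all genes tested, with a list median of 0.07. These were Sdf2l1, a partner of the chaperone BiP, by 0.32 (adjusted p = 0.000144 by edgeR), and Uggt1, the sensor that returns unfolded glycoproteins to calnexin and calreticulin, by 0.28 (adjusted p = 1.36e-05). At an unadjusted p under 0.05 edgeR gave 6 of the 15 raised by IFN-gamma and 0 lowered, and DESeq2 called 2 raised and 0 lowered. Hypoxia raised 3 and lowered 1 of the 15, against 8.21% raised and 6.83% lowered over all genes, so the 1 lowered is no more than that share. Ero1a, the oxidase that recharges disulfide exchange enzymes, went from 4791 to 9887 counts without IFN-gamma and from 4643 to 9398 with it, a change of 1.03 (adjusted p = 4.28e-71 by edgeR). P4hb, a disulfide isomerase related to Pdia3, was raised by 0.28 (adjusted p = 5.63e-07), and Hsp90b1 by 0.21 (adjusted p = 2.5e-05). Ero1a and P4hb were called in all 5 alternative fits, and Hsp90b1, like Sdf2l1 and Uggt1 with IFN-gamma, in 4. Mogs, which removes the first glucose of the sugar chain, fell by 0.15 (adjusted p = 0.0493), and no alternative fit kept that call.

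None of 8 peptide trimming enzymes other than Erap1 was called with IFN-gamma in the additive edgeR fit. Over all genes tested 4.76% were raised and 1.10% lowered, so 0 of 8 is near those shares. The list median was 0.00. At an unadjusted p under 0.05 the count was also 0, as it was by DESeq2, while Erap1 was called by both tools. With hypoxia 2 of the 8 were raised and 2 lowered, where the shares over all genes were 8.21% and 6.83%. Npepps, a cytosolic aminopeptidase, was raised by 0.41 (adjusted p = 3.86e-12 by edgeR), and Thop1, a cytosolic endopeptidase that destroys peptides, fell by 0.23 (adjusted p = 0.00118). Lnpep was raised by 0.22 (adjusted p = 0.0232), a call kept in 2 of 5 alternative fits, with an adjusted p of up to 0.297 (edgeR or DESeq2). Npepps and Thop1 were kept in 4 of 5.

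Of 13 regulators of class I genes, 12 were tested, and IFN-gamma raised 5 in the edgeR fit, against 4.76% of all genes tested. Ciita, the class II relative of Nlrc5, had 7 and 10 counts in the controls and 116 and 152 with IFN-gamma, a change of 3.97 (adjusted p = 3.03e-28). Its change was larger than that of Nlrc5, from a level near the limit of detection. Irf1, a transcription factor of the interferon response, had 3770, 4422, 20118 and 23759 counts and changed by 2.43. Irf2 changed by 0.79 and Rfx5, which carries Nlrc5 to class I promoters as part of the RFX complex, by 0.73. The other RFX subunits Rfxap and Rfxank, and the NF-Y subunits, were not called with IFN-gamma. With hypoxia 2 of the 12 were raised and 1 lowered, where the shares over all genes were 8.21% and 6.83%. The 1 lowered is thus near that share. Irf1 was raised by 0.24 (adjusted p = 0.000146 by edgeR) and Rfxap by 0.27 (adjusted p = 0.0141 by edgeR). Nfyc fell by 0.22 (adjusted p = 0.00878 by edgeR), with 26.5% of its words shared with Gm9144. Of 5 alternative fits, 4 kept the Irf1 call, 2 kept Rfxap, with an adjusted p of up to 0.364, and 3 kept Nfyc, with one of up to 0.188 (edgeR or DESeq2). Irf8, with 0, 5, 2 and 12 counts, was too low to test.

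**Figure D5:**
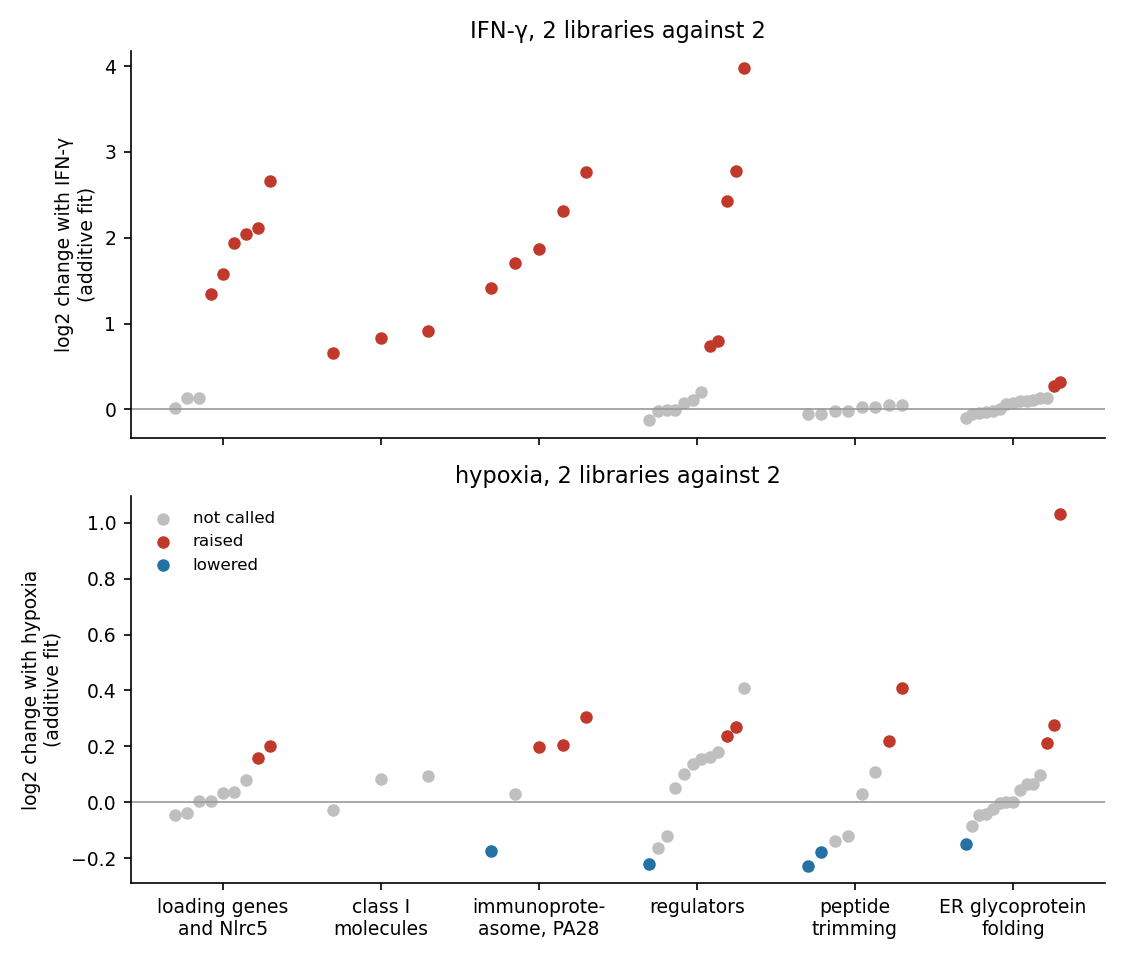
Additive log2 change with IFN-gamma and with hypoxia for each tested gene of the 9 genes and of the 5 pathway lists, with 1 point for each gene. The 5 immunoproteasome and PA28 genes are all raised by IFN-gamma with a median of 1.87, and the 8 trimming enzymes lie around a median of 0.00.

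The genes whose pattern lay nearest to Nlrc5 were found by the distance between 3 log2 ratios to control normoxia, among genes whose mean count was 50 or more. They were Irgm1 at a distance of 0.299, Fam189a1 at 0.364, Il15ra at 0.379, Phf11d at 0.391 and Irf1 at 0.400. Fam189a1 had only 18, 18, 86 and 101 counts. As point values, the log2 ratios of hypoxic to normoxic control of these 5 ran from -0.01 for Il15ra to 0.23 for Irf1. That of Nlrc5 was -0.16 (95% counting interval -0.29 to -0.04). The control counts of Fam189a1, Phf11d (76 and 76) and Il15ra (277 and 275) were low and no interval was computed for them, so their differences from Nlrc5 are uncertain. For Tap1 the nearest were Parp14 at 0.0983, Tap2 at 0.109, Ube2l6 at 0.133, Cd274 at 0.204 and Trim21 at 0.224. Tap2 was thus among the 5 nearest genes to Tap1, and each of the 5 nearest to Tap1 lay closer to it than any gene lay to Nlrc5. The measure rests on 4 libraries that share 1 control.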

How the data were processed

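The authors deposited whole-number read counts per gene, unnormalized, for 4 poly(A)-selected, strand-specific libraries sequenced as paired-end 100 bp reads. They aligned with HISAT2, and the submitters' processing notes name featureCounts and the mm10 build. Versions, gene annotation and strand setting are not given in the sources used here. Counts were tested as deposited with edgeR 4.0.16 in R 4.3.3 (TMM scaling, low-count filter with a minimum of 10, quasi-likelihood test, additive model, 1 residual degree of freedom, Benjamini-Hochberg adjustment over 13580 genes). DESeq2 1.42.0 and 4 other settings were alternatives. Single pairs were compared as log2 ratios of scaled counts with 0.5 counts added and exact 95% (Clopper-Pearson) intervals, and differences of changes had Poisson intervals. Intervals cover counting error only. A count of 0 allows up to 3 counts, or 0.0869 to 0.0875 per 1000000 counts. Exon lengths and all exon overlaps between genes came from GENCODE M21, and positions and promoters from RefSeq GRCm38.p6. The pathway lists, like the members, were chosen with earlier results of these data known. Named list genes are the up to 3 called with the largest change for each stimulus. Irf2, Rfx5 and the hypoxia values of Psmb10 and Mogs were named after their values were seen. One gene that this rule gives is not reported here.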

Additional observations from a re-analysis of the deposited data

Results flagged for a closer look

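For Nlrc5, Canx, Calr and Tapbpl, a change had opposite signs in the 2 states of the other stimulus, with 1 library a condition. The share of all genes with opposite signs was not counted, so the pattern may be ordinary. None of these differences was tested. The hypoxia change of Nlrc5 was -0.161 on the log2 scale without IFN-gamma and 0.167 with it, a difference of 0.328. For Canx the hypoxia change was 0.0418 without IFN-gamma and -0.0324 with it. Its IFN-gamma change was 0.0556 in normoxia and -0.0187 in hypoxia. Both give the same difference of -0.0743, read in 2 ways. For Calr the hypoxia change was -0.076 without IFN-gamma and 0.000413 with it, a difference of 0.0765. The counting interval of the value with IFN-gamma, -0.018 to 0.019, held 0. In Tapbpl the hypoxia change was -0.0368 without and 0.0338 with IFN-gamma, a difference of 0.0706, and both counting intervals held 0. All of these differences lie inside the central 95% of 10443 genes, -0.364 to 0.403, a range not matched to the counts of these genes.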

How the results depend on the processing

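The 6 IFN-gamma calls among the 9 genes held in all 5 alternative fits (another scaling, no low-count filter, a stricter one, 2 libraries against 2, DESeq2). The 2 hypoxia calls, Tap1 and Tap2, fell to 0 with no filter, with 2 libraries against 2, with DESeq2 and with a log2 change of at least 1. For the pathway lists, 15 raised by IFN-gamma became 8 at a log2 change of at least 1. The 10 raised by hypoxia became 6 with no filter, 2 with 2 libraries against 2, 6 with DESeq2 and 1 at that log2 change, and the 5 lowered became 0 with 2 libraries against 2, 1 with DESeq2 and 0 at that log2 change. With no filter the hypoxia values of Tapbpl and Canx turned to -0.0036 and -0.0045, from 0.0042 and 0.0047, none called. The cause was not tested. Pairing by replicate number was not possible because each condition has 1 library. The additive fit already compares IFN-gamma within each oxygen level. Leaving out a library leaves no residual degrees of freedom, so that the single pairs stand as values with no test.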
